A study of Homo sapiens with 24 samples.

Results

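The regions around the 5 human uroplakin genes UPK1A, UPK1B, UPK2, UPK3A and UPK3B were examined in ChIP-seq peak lists of UMUC1 cells, an established human bladder cancer line. ChIP-seq sequences the DNA that an antibody pulls down with a protein or a histone mark, and a peak list holds the places where a caller found more reads than background. Members were all called regions that overlapped a window of the gene body plus about 50 kb on each side, which gave 601 of the 1483402 regions in 18 lists. The windows, in hg19, were chr19:36108001-36219000 for UPK1A (97 regions, NCBI gene 11045), chr3:118842001-118974000 for UPK1B (130 regions, gene 7348), chr11:118777001-118880000 for UPK2 (99 regions, gene 7379), chr22:45631001-45742000 for UPK3A (166 regions, gene 7380) and chr7:76090001-76207000 for UPK3B (109 regions, gene 105375355). Together they spanned 574 kb.

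The 3 stable lines carried the vector pSIN-puro empty (EV), with wild type UTX (WT), or with UTX holding the substitutions H1146A and E1148A (HEAA). All were grown in serum-containing medium and fixed 3 days after plating. The labels do not say whether a line is a pool of cells or 1 clone, nor whether UMUC1 itself makes UTX. Each line had 1 list for UTX, MLL4, H3K4me1 and H3K27me3 and 2 numbered libraries for H3K27ac, and the 6 input samples had no list used here.

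Uroplakins are membrane proteins of the urothelium, the lining of the bladder, and mark its most differentiated cells, the umbrella cells. The tetraspanins UPK1A and UPK1B each pair with a single-pass partner, UPK1A with UPK2 and UPK1B with UPK3A or UPK3B, and the pairs assemble into the rigid plaques that cover the surface of the umbrella cell. UTX, also called KDM6A, removes methyl groups from lysine 27 of histone H3 and sits in a complex with MLL4, a methyltransferase that places H3K4me1 at enhancers. H3K27ac marks active promoters and enhancers, and H3K27me3 is the mark of Polycomb repression that UTX can erase.

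The sequence just upstream of a start is shown as background, and its relation to the UTX and acetylation results below was not tested. RefSeq promoter sequence was held for 3 of the 5 genes, UPK1A, UPK1B and UPK3B, and is given here for the 250 bases before the start, 5′ to 3′ on the plus strand of GRCh38.p14, a build other than that of the peaks. Capitals mark matches, on either strand, to 13 spellings of motifs of factors known in epithelial cells.
UPK1A (chr19:35666267-35666516): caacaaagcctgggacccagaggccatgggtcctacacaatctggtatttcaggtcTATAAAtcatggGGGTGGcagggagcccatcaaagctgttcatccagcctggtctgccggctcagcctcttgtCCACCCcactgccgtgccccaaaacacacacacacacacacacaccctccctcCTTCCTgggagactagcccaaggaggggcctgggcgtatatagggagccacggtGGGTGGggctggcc
UPK1B (chr3:119173348-119173597): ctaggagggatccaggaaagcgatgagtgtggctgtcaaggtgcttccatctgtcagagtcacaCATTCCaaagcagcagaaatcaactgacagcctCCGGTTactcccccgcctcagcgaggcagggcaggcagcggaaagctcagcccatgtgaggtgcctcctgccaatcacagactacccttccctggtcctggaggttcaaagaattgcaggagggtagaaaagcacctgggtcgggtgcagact
UPK3B (chr7:76510302-76510551): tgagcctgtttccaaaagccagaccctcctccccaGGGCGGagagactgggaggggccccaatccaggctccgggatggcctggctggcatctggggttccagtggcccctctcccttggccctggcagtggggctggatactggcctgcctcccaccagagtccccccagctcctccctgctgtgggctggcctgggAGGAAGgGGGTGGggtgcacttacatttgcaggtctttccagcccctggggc

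The CG dinucleotide occurred 4 times in UPK1A, 6 in UPK1B and 2 in UPK3B, against a median of 11 over 35116 promoters of the same length. Fewer copies were in 29.3%, 38.1% and 14.7% of promoters, so none of the 3 was extreme. Their GC content was 60%, 56.8% and 67.2%, near the median of 58%. UPK1A held 3 copies of GGGTGG, a KLF spelling, 1 of them on the minus strand and printed as its reverse complement CCACCC. It also held AGGAAG, an ETS spelling, on the minus strand. TATAAA, the 1 TATA box spelling searched, lay 194 to 189 bases before its start. The UPK1A sequence also holds tatata nearer the start, left in lower case because that spelling was not searched. Whether either stretch acts as a TATA box was not tested. UPK1B held GGAATG, a TEAD spelling, at 186 to 181 and AACCGG, a grainyhead spelling, at 153 to 148 bases before the start, both on the minus strand. UPK3B held the KLF spelling GGGCGG at 215 to 210 bases before the start, the ETS spelling AGGAAG at 52 to 47 and the KLF spelling GGGTGG next to it at 45 to 40. None of the matches overlapped another. Of all promoters, 31.3% held GGGTGG, 42.6% GGGCGG, 28.7% AGGAAG, 10.7% TATAAA, 11.9% GGAATG and 5.99% AACCGG. The other spellings searched were the AP-1 site TGACTCA and its reverse complement TGAGTCA (4.20% of promoters), AGATAA for GATA (9.17%), the forkhead spellings TGTTTAC (2.98%) and TATTTAC (2.39%), AGGTCA for PPAR (12.1%) and CCGGAA for ETS (14.5%). These letters were not in the 250 bases of the 3 genes.

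Across the whole lists, the EV, WT and HEAA lines had 31, 2566 and 2855 UTX peaks and 133, 898 and 1125 MLL4 peaks. The H3K27ac regions of these lines spanned, in Mb, 88.1, 96.0 and 110 for replicate 1 but 71.6, 55.3 and 48.3 for replicate 2, so the order of the lines by covered length was opposite in the 2 numbers. Read depth is unknown for all lists. A place without a peak is one where the signal did not pass the caller's threshold. The fold and the −log10 q of a peak are the authors' values, and they rank peaks only within their own list.

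The UTX comparison asks where the introduced protein was found, and whether the mutant was found at the same places. The uroplakin windows held no UTX peak of the EV list, 7 of the WT list and 3 of the HEAA list. WT UTX stood at the starts of UPK2 and UPK3B and at places near UPK1B and UPK3A, in 4 of the 5 windows. HEAA UTX stood in 2 of 5 windows, those of UPK1B and UPK2, and at no start. UPK1A, the tetraspanin partner of UPK2, had no UTX peak in any line. Its start was 660 kb from the nearest WT peak and 544 kb from the nearest HEAA peak.

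As background, the genome was split into 26375 tiles of 115 kb, about the width of a window. UTX peaks were in 7.69% of all tiles in WT and 8.41% in HEAA, and in 0.102% in EV. The uroplakin windows carry far more H3K27ac than most of the genome, so acetylated tiles are the nearer comparison. Among the 10897 tiles that held an H3K27ac region in all 6 libraries, WT UTX was called in 17.5%, HEAA UTX in 19.3% and EV UTX in 0.22%. Among the 2221 tiles at least as acetylated as the least acetylated uroplakin window, the shares were 45.1%, 49.1% and 0.54%. HEAA UTX was in 2 of 5 windows and WT UTX in 4 of 5, with only 5 windows to count. These dense tiles share a lower bound only, a mean H3K27ac share of 8.85%. The UPK1B, UPK2 and UPK3A windows carry much more, so the tiles are not matched to each window. Whether WT UTX was in more windows than in tiles of equal acetylation was not tested.

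**Figure D1:**
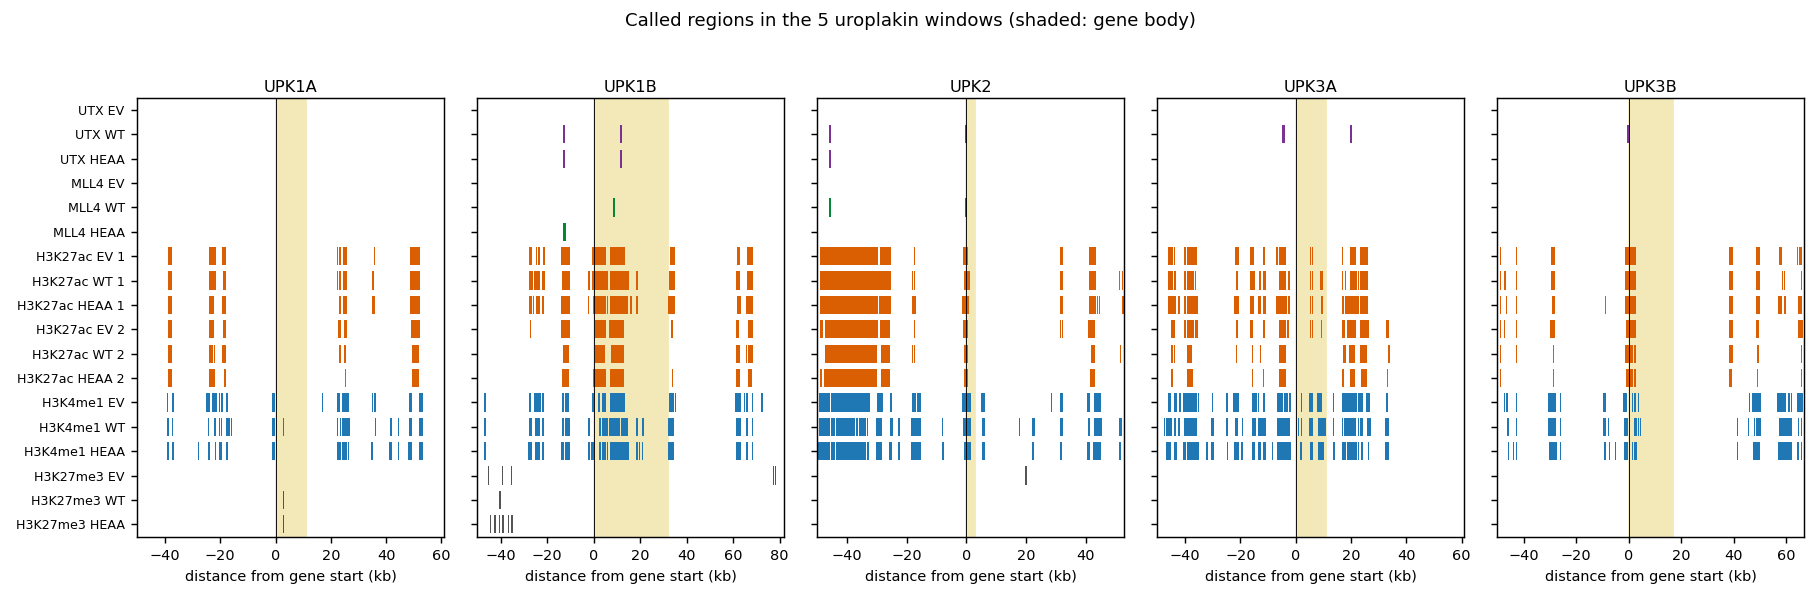
Called regions in the window of each gene, by list (rows; EV, WT and HEAA are the lines and the numbers the H3K27ac replicates), against the distance from the gene start in kb, with the gene body shaded; very short regions are widened to be visible. UTX marks stand in 4 windows in WT and 2 in HEAA, and the UPK2 window has a block of H3K27ac and H3K4me1 from about 49 to 25 kb before the start in all lines.

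UPK1B, the tetraspanin that pairs with UPK3A and UPK3B, had UTX peaks at the same 2 places in WT and HEAA. The first was chr3:118879256-118879505 in WT, with its summit 12.6 kb before the gene start, a fold of 4.40 and a −log10 q of 8.23. HEAA had a peak at the same place, chr3:118879289-118879490, with a fold of 4.17 and a −log10 q of 7.75. The other lay inside the gene body, 11.8 kb after the start, at chr3:118903734-118903914 in WT with a fold of 4.64 and a −log10 q of 6.50. In HEAA it was chr3:118903667-118903931, with a fold of 6.13 and a −log10 q of 11.1, above 70.3% of that list by q. The WT and HEAA summits at these 2 places were within 10 bases and 4 bases of each other.

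At UPK2, which encodes the partner of UPK1A, a pair of UTX peaks was called in WT and 1 in HEAA. The distal one, 45.7 kb before the start on the side of BCL9L, was in both lines, at chr11:118781155-118781359 in WT (fold 4.91, −log10 q 7.06) and chr11:118781092-118781387 in HEAA (fold 3.82, −log10 q 3.92). The other lay at the UPK2 start, at chr11:118826754-118827019, with its summit 0.096 kb before the start as taken here. Starts were taken to the nearest kb, so the summit may lie on either side of the true start. This peak was the strongest of the 7 WT peaks, with a fold of 6.14 and a −log10 q of 11.8, above 69.6% of the WT list. HEAA had no peak there, and the nearest one was the distal peak 45.4 kb away.

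UPK3A and UPK3B, the partners of UPK1B, had UTX peaks in WT alone. At UPK3A, 1 was 4.38 kb before the start, at chr22:45676521-45676741, with a fold of 6.11 and a −log10 q of 10.9. Another, chr22:45700951-45701144, was 20.0 kb after the start and past the gene body, with a fold of 4.54 and a −log10 q of 4.30. The nearest HEAA peaks were 160 kb and 136 kb away. At UPK3B the peak chr7:76139675-76140015 lay at the start as taken here to the nearest kb, with its summit 0.178 kb before that point. The true side is uncertain. The peak had a fold of 5.40 and a −log10 q of 9.41, and the nearest HEAA peak was 218 kb away.

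In all, 4 of the 7 WT peaks had no overlapping HEAA peak, against 32.7% of the whole WT list (839 of 2566 peaks). None of the 3 HEAA peaks lacked a WT peak, against 39.6% of the HEAA list. WT peaks recurred in HEAA in 43.3% of the weakest decile of the list by q and in 96.9% of the strongest. The peaks at the UPK2 start and 4.38 kb before UPK3A were in decile 7, where 73.0% of 256 peaks recurred. The peak at the UPK3B start was in decile 6, where 68.6% of 261 recurred, and the peak 20.0 kb after the UPK3A start was in decile 2, where 45.6% of 263 did. The 3 peaks that recurred were in deciles 4 and 5. With 1 UTX list a line these counts have no replicate check. Peaks in the UTX files are named as merged, without saying of what, so a list may combine more than 1 library. Whether the sites without a HEAA peak differ in UTX signal was not tested.

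**Figure D2:**
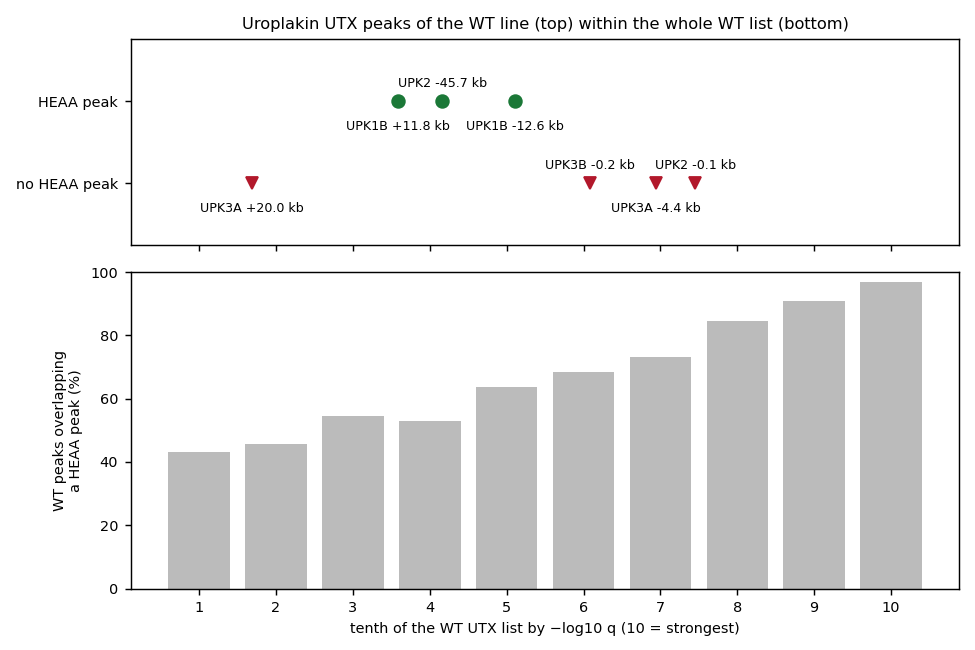
Top: the 7 UTX peaks of the WT line in uroplakin windows, placed by their rank in the WT list and split by whether a HEAA peak overlaps. Bottom: the percent of all WT peaks in each decile of −log10 q that overlap a HEAA peak. The peaks at the UPK2 and UPK3B starts and 4.38 kb before UPK3A lack a HEAA peak and rank above the 3 that have one, and whether UTX signal differs there was not tested.

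MLL4 peaks were fewer: WT had 3, HEAA 1 and EV 0. They lay in the windows of UPK1B and UPK2 in WT and of UPK1B in HEAA. MLL4 was called in 3% of all tiles for WT, 3.68% for HEAA and 0.428% for EV. Acetylated tiles had it in 7.05%, 8.6% and 0.982%, and densely acetylated tiles in 19.7%, 24.1% and 2.52%. At the UPK2 start the WT peak chr11:118826792-118826996 had a fold of 8.11 and a −log10 q of 12.0, above 87.2% of the list, and lay within the WT UTX peak there. Decile 9 of the WT MLL4 list, to which it belongs, recurred in HEAA in 71.0% of 93 peaks, and its own nearest HEAA peak was 110.5 kb away. A weaker one, chr11:118781099-118781366, with a fold of 4.77 and a −log10 q of 3.16, lay at the distal UTX peak of UPK2. The UPK1B peak of WT, chr3:118900742-118900909, 8.84 kb after the start, was among the weakest of its list, with a fold of 3.22 and a −log10 q of 1.68. In HEAA the single peak, chr3:118879328-118879492, fold 5.18 and −log10 q 6.16, was at the shared UTX site 12.6 kb before UPK1B. All 3 WT peaks lacked a HEAA peak (48.1% of the list did) and the HEAA peak lacked a WT one (58.6% of its list). The distal UPK2 peak and the UPK1B peak of WT were in decile 1 of their list, where 31.1% of 90 peaks recurred in HEAA. The HEAA peak was in decile 4 of its list, where 27.9% of 111 recurred in WT.

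The UTX sites of the windows shared a chromatin setting. The windows carry more H3K27ac than most of the genome, so the shares of the whole lists given here are not matched for acetylation. The summits of all 7 WT peaks lay in H3K27ac in all 6 libraries, EV included, against 54.3% of the WT list, and those of the 3 HEAA peaks did so too, against 55.3%. H3K4me1 of the EV, WT and HEAA lines covered the summit of 3, 3 and 4 of the 7 WT peaks, against 56.2%, 46% and 47.9% of the list. It covered 1, 0 and 1 of the 3 HEAA summits, against 57.2%, 48.5% and 49.2%. At the UPK3B start the summit lay 332, 76 and 110 bases from H3K4me1 in EV, WT and HEAA. At the distal UPK2 site it lay 138, 166 and 181 bases away, and 12.6 kb before UPK1B 109, 200 and 189 bases away. These summits thus lay beside H3K4me1 regions in each line. An MLL4 peak of the same line overlapped 2 of the 7 WT peaks (22.6% of the list) and 1 of the 3 HEAA peaks (26.2%).

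The 5 gene starts differed in which marks they carried. A region within 1 kb of the start was called for H3K27ac in all 6 libraries at UPK1B, UPK2 and UPK3B, and in none at UPK1A and UPK3A. The RefSeq table gives no hg19 start, so starts were taken from the windows, to the nearest kb. Sides and distances of less than 1 kb, and calls near the 1 kb limit, are therefore uncertain.

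At UPK3B, H3K27ac covered 100% of the 2 kb around the start in EV 1, WT 1, HEAA 1, EV 2 and WT 2, and 92.2% in HEAA 2. The merged region, chr7:76138454-76142895, was 4.44 kb wide, with folds of 8.45, 11.7 and 10.9 in EV, WT and HEAA of replicate 1 and 8.86, 5.88 and 7.08 in replicate 2. H3K4me1 covered 24.6% of the 2 kb in EV, 37.4% in WT and 35.7% in HEAA, on the upstream side. The UPK3B start was the most completely acetylated of the 5.

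At UPK2, H3K27ac covered 70.7%, 97.6% and 97.7% of the 2 kb in EV, WT and HEAA of replicate 1, and 69.2%, 66.9% and 61.4% in replicate 2. The region chr11:118825402-118828210, 2.81 kb wide, had folds of 8.75, 9.15 and 5.16, and 8.50, 5.77 and 5.36. H3K4me1 covered 100% in EV and in WT and 97.4% in HEAA. UPK2 was the 1 start of the 5 with acetylation and H3K4me1 in each list of those marks and with UTX and MLL4 peaks in WT.

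At UPK1B the region chr3:118891140-118898087, 6.95 kb wide, reached from 0.861 kb before the start into the gene body. It covered 93.1%, 78.7% and 70.1% of the 2 kb in replicate 1 and 25.7%, 22.3% and 57.5% in replicate 2, with EV, WT and HEAA in that order. Its folds were 8.09, 9.94 and 9.41 in replicate 1 and 9.64, 7.68 and 8.74 in replicate 2. H3K4me1 was within 1 kb of this start in EV and HEAA, and 1.67 kb away in WT. Most of the acetylated block lay downstream of the start.

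UPK1A and UPK3A, 1 of the tetraspanins and 1 of the single-pass partners, had no H3K27ac at their starts in any library. At UPK1A the nearest H3K27ac region was 17.8 to 18.1 kb away across the 6 libraries, while H3K4me1 lay just upstream of the start, covering 35.9%, 38.3% and 37.5% of the 2 kb (EV, WT, HEAA) with folds of 3.15, 3.93 and 3.21. The UPK1A start thus had H3K4me1 without acetylation in all 3 lines. At UPK3A the nearest H3K27ac region was 2.18 to 3.61 kb upstream. H3K4me1 came within 1 kb of the UPK3A start in WT alone, 0.922 kb away, and was 1.70 kb away in EV and 1.60 kb in HEAA. With the start known only to the nearest kb, that call in WT is uncertain. No H3K27me3 region lay within 1 kb of any of the 5 starts.

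**Figure D3:**
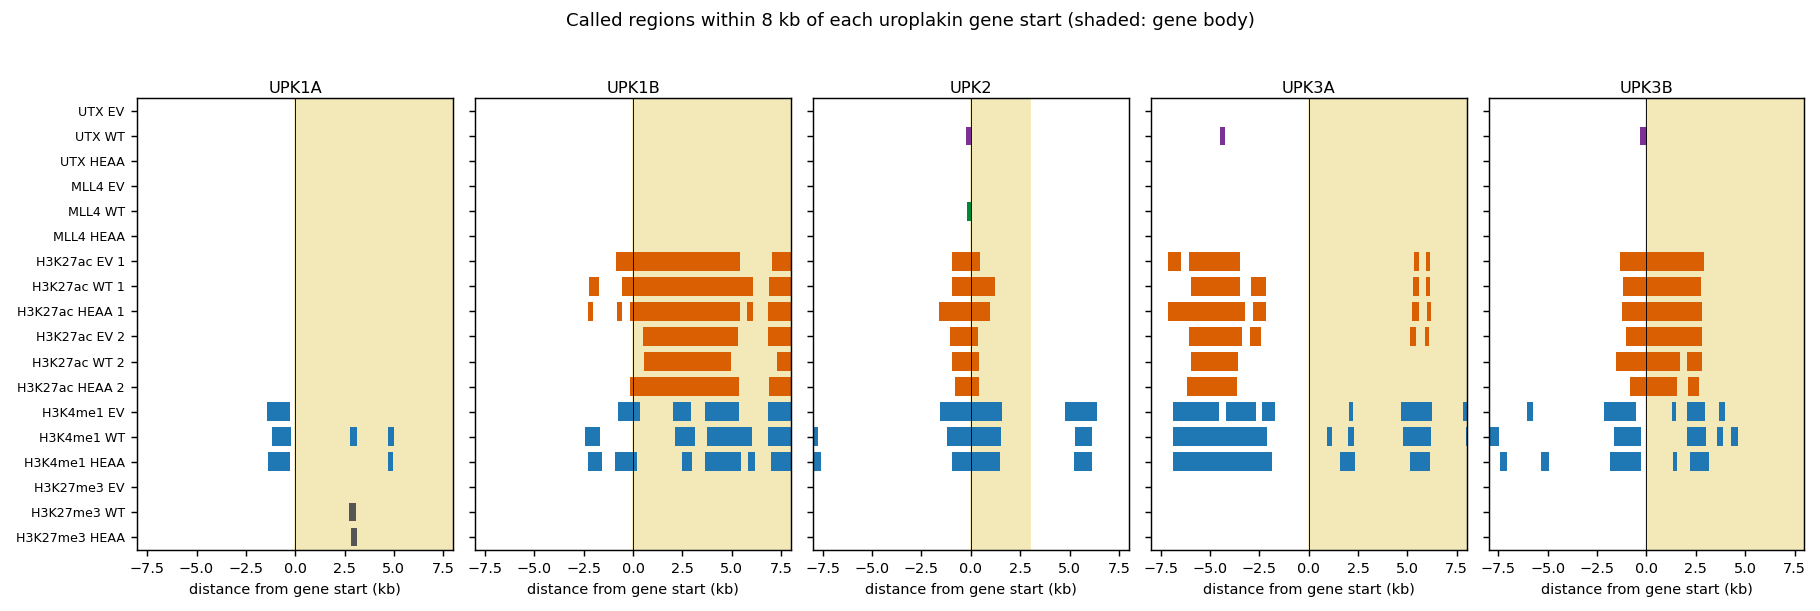
Called regions within 8 kb of each gene start, by list (rows) against the distance from the start in kb, gene body shaded. H3K27ac lies over or beside the starts of UPK1B, UPK2 and UPK3B in all 6 libraries, and WT UTX lies at the starts of UPK2 and UPK3B; the UPK1A start has H3K4me1 upstream and no H3K27ac.

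H3K27ac is the 1 mark with replicate libraries, so the share of each window inside its regions could be compared between lines. In no window did the EV libraries lie outside the range of the 4 libraries with UTX. Of the acetylated tiles, 4.84% had both EV libraries above all 4 others and 2.06% below them. Against HEAA alone both EV libraries were above in 6.21% and below in 2.93%, and no uroplakin window was among these. Nothing in the labels says that the numbered libraries are separate cultures, so the p-values below measure only the spread between these libraries. With 2 against 4 libraries an exact permutation test cannot go below 0.0667, and with 2 against 2 not below 0.333.

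The UPK2 window was the most acetylated. Its covered share was 26.7% in EV 1, 26.1% in EV 2, 29.7% in WT 1, 23.6% in WT 2, 30.7% in HEAA 1 and 24.0% in HEAA 2. The EV libraries lay between the 2 libraries of each other line, and the difference of the UTX lines from EV was 0.610 points (exact permutation test, two-sided, p = 0.8). From 97.9% to 99.4% of acetylated tiles had less, depending on the library. Most of it was 1 merged block of 24.1 kb, chr11:118777762-118801843, from 49.2 to 25.2 kb before the UPK2 start on the BCL9L side. The highest folds called within it were 13.6, 17.1 and 16.4 in EV, WT and HEAA of replicate 1 and 18.6, 12.7 and 11.8 in replicate 2. The block holds the distal UTX site.

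The UPK1B window was covered at 19.4% in EV 1, 14.5% in EV 2, 24.0% in WT 1, 12.6% in WT 2, 23.4% in HEAA 1 and 13.8% in HEAA 2. The lines overlapped, with a difference of 1.47 points (exact permutation test, two-sided, p = 0.733). The gene body itself held 31.1% to 47.4% acetylation across the libraries. Besides the region at the start it held chr3:118898818-118907116, 8.30 kb wide, which carried the intragenic UTX site of WT and HEAA and the MLL4 peak of WT, with folds from 7.03 to 9.59.

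The UPK3A window was covered at 16.7% in EV 1, 19.0% in EV 2, 18.1% in WT 1, 11.8% in WT 2, 24.8% in HEAA 1 and 10.2% in HEAA 2. HEAA had both the highest and the lowest library, and the difference from EV was −1.58 points (exact permutation test, two-sided, p = 0.867). The regions of highest fold were chr22:45641674-45645521, 39.3 kb before the start (folds 6.76 to 11.5), chr22:45704133-45707520, 23.1 kb after it (6.82 to 9.14), and chr22:45673881-45677788, which holds the WT UTX site 4.38 kb before the start (5.37 to 8.33).

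The UPK1A window was covered at 9.89% in EV 1, 8.99% in EV 2, 10.7% in WT 1, 7.82% in WT 2, 10.5% in HEAA 1 and 6.61% in HEAA 2. The lines overlapped, with a difference of −0.550 points (exact permutation test, two-sided, p = 0.8). None of it was in the gene body, which was at 0% in all 6 libraries. The regions of highest fold were chr19:36119038-36120682, 39.0 kb before the start (folds 8.25 to 15.9), chr19:36206704-36210224, 48.7 kb after it toward KMT2B and IGFLR1 (7.69 to 13.6), and chr19:36138637-36140211, 19.4 kb before it (8.34 to 13.3).

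The UPK3B window was covered at 11.0% in EV 1, 9.78% in EV 2, 9.07% in WT 1, 7.07% in WT 2, 11.6% in HEAA 1 and 4.54% in HEAA 2. Both WT libraries lay below both EV libraries, and HEAA lay on both sides. EV averaged 10.4% ± 0.865 (SD, n = 2) and WT 8.07% ± 1.42 (SD, n = 2), a difference of −2.32 points at the smallest p the exact permutation test allows (0.333). WT lay below EV in the same way in 15.5% of acetylated tiles, and above it in 5.91%. Against both UTX lines the difference was −2.31 points (exact permutation test, two-sided, p = 0.4). At the start itself WT was covered as fully as EV. UPK3B has near copies, UPK3BL1 and UPK3BL2, and no source used here says how reads shared between copies were placed, so its values are less certain than those of the other 4. Its gene body is 17 kb by the window and 5.97 kb in RefSeq, so no share of that body is given.

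WT and HEAA also overlapped in each window. WT minus HEAA was 0.686 points for UPK1A, −0.288 for UPK1B, −0.672 for UPK2, −2.54 for UPK3A and −0.00897 for UPK3B (exact permutation tests, two-sided, p from 0.667 to 1). Within replicate 1, both UTX lines lay above EV in the windows of UPK1A, UPK1B, UPK2 and UPK3A, and within replicate 2 both lay below it. In UPK3A, for example, HEAA was 8.13 points above EV in replicate 1 and 8.75 points below it in replicate 2. This pattern, in 4 of 5 windows, was also that of 44.6% of acetylated tiles, and the covered length of the whole lists had the same order.

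**Figure D4:**
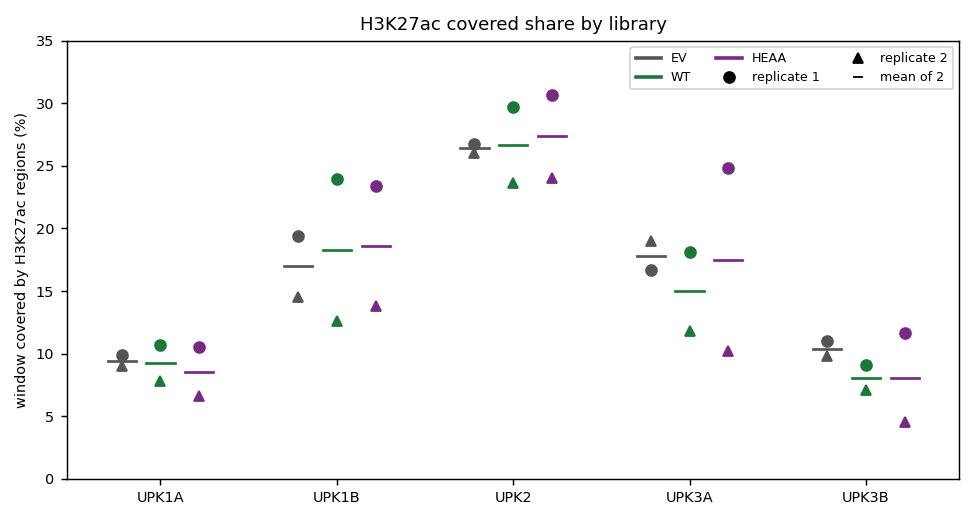
Percent of each window covered by H3K27ac regions, 1 symbol a library (circle, replicate 1; triangle, replicate 2), with the line's mean as a bar (n = 2). UPK2 is the highest, from 23.6% to 30.7%, and in every window the spread between the 2 libraries of WT and HEAA exceeds the distance between the line means, except WT against EV in UPK3B.

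Merging the 6 libraries gave 60 H3K27ac regions in the windows of 81753 in the genome. All 6 libraries called 28 of the 60, that is 46.7%, against 31.8% of the genome's. They were 5 of 7 regions in the UPK1A window, 6 of 12 in UPK1B, 3 of 9 in UPK2, 8 of 19 in UPK3A and 6 of 13 in UPK3B. Another 9 were in 1 library alone (28.9% of the genome's regions), and 8 in replicate 1 libraries alone (20.6%). Of replicate 2 alone there was 1 (0.409%). No region was in both EV libraries and none of the other 4 (background 0.91%), nor in both EV libraries and neither WT (2%) or neither HEAA library (1.21%), nor in both HEAA and neither WT library (0.223%). Both WT without either EV library had 2 (1.29%), and both HEAA without either EV library had 1 (1.03%).

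A single region was shared by the 4 libraries with UTX and missing from EV, against a background of 0.541%. It was chr22:45667527-45668480, 13.5 kb before the UPK3A start, with folds of 2.73 and 3.58 in WT and 2.96 and 3.57 in HEAA. H3K4me1 was called over it in all 3 lines. A further region, in both WT libraries and in no EV or HEAA library, was chr11:118878309-118878821, 51.3 kb after the UPK2 start, with folds of 3.40 and 3.11. Regions of both WT libraries and neither HEAA library were 0.152% of the genome's. Neither region held a UTX or MLL4 peak. Both were weak, and neither kept its pattern at a −log10 q of at least 2.

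The strongest H3K27ac of the UPK3B window was away from the gene. It was chr7:76178116-76179899, 38.1 kb after the start on the side of SPDYE16 and POMZP3, with folds of 10.2, 10.2 and 12.1 in EV, WT and HEAA of replicate 1 and 18.9, 12.5 and 13.5 in replicate 2. A short region at the edge of the window on the DTX2 side, chr7:76091001-76091420, had folds of 8.39 to 17.8. Neither had H3K4me1 in any line, which was true of no other region called in all 6 libraries in the 5 windows.

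H3K4me1 had 1 list a line, so its values carry no replicate check. In the order EV, WT, HEAA it covered 14.9%, 13.1% and 13.1% of the UPK1A window. The UPK1B window was at 20.3%, 21.7% and 22.7%, and UPK2 at 30.9%, 31.3% and 30.8%. UPK3A was at 28.7%, 31.8% and 30.4%, and UPK3B at 16.9%, 15.2% and 15.5%. Over the 5 windows the WT length was 1.01 times and the HEAA length 1.01 times that of EV, while over the genome they were 1.14 and 1.18 times. The ratios to EV ran from 0.876 to 1.12 over the 5 windows, and for each gene the direction depended on the setting. Relative to the list's share of the genome, the WT and HEAA values were 0.941 and 0.947 times EV for UPK1B and 0.973 and 0.891 times for UPK3A, below EV where the plain shares were above it. With 25 kb on each side UPK3B was 1.12 and 1.02 times EV, where the plain shares were below it.

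Of 111 merged H3K4me1 regions in the windows, all 3 lines called 62, or 55.9%, against 47.1% of the genome's. WT and HEAA without EV called 13 (background 13.5%), EV alone 11 (7.55%), WT alone 10 (11.2%) and HEAA alone 9 (13.3%). EV and WT without HEAA called 2 (2.88%), and EV and HEAA without WT 4 (4.49%). The strongest of all by fold was at UPK3B, chr7:76142032-76142952 in EV, 2.03 to 2.95 kb after the start, at the downstream edge of its acetylated block. Its fold of 7.03 was above 99.99% of the EV list, and the same place had folds of 4.89 in WT and 6.28 in HEAA. In the UPK2 window the strongest H3K4me1 lay in the BCL9L-side block in all lines, with folds of 5.23, 6.17 and 5.53 in EV, WT and HEAA. In the UPK1B window it lay beside the upstream UTX site in EV (fold 4.18) and over the intragenic UTX site or next to it in WT (4.37) and HEAA (4.27). In the UPK1A window the leading fold was 5.11 in EV, 23.9 kb after the start, 4.80 in WT, 24.0 kb after it, and 4.42 in HEAA, 48.0 kb after it. In the UPK3A window the strongest region differed between lines, 22.6 kb before the start in EV (4.50), inside the gene body in WT (3.80) and 11.8 kb before the start in HEAA (4.57).

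Bases with H3K4me1 and H3K27ac together are usually read as active enhancers and those with H3K4me1 alone as enhancers not in use. Of the H3K4me1 bases in the windows, 61.5%, 59.0% and 64.6% were acetylated in either library of EV, WT and HEAA. Over the genome the shares were 45.1%, 40.1% and 43.3%. UPK1B had the highest share, with 76.4%, 85.8% and 82.5%. UPK2 had 68.8%, 68.4% and 72.1%, and UPK3A 62.2%, 52.0% and 67.2%. UPK3B had 48.7%, 36.0% and 45.2%, and UPK1A the lowest, 37.7%, 30.1% and 29.5%. The order UPK1B, UPK2, UPK3A, UPK3B, UPK1A was the same in all 3 lines.

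**Figure D5:**
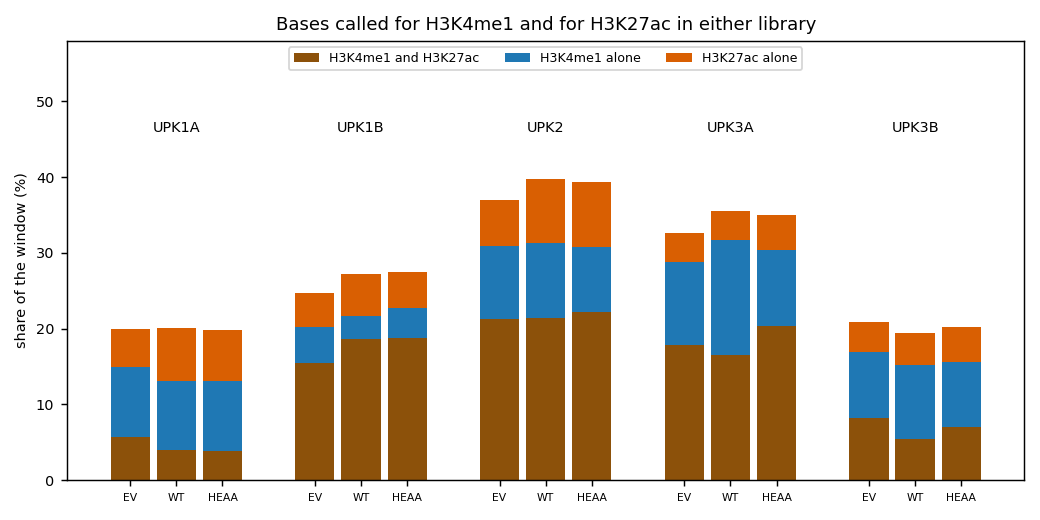
Share of each window (%) called for H3K4me1 together with H3K27ac, for H3K4me1 alone and for H3K27ac alone (H3K27ac in either library of the line), in EV, WT and HEAA. The 3 lines of a gene are alike in height, and the part with both marks is smallest in UPK1A and UPK3B and largest in UPK2.

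H3K27me3, the mark UTX removes, covered little of the uroplakin windows in each line. The EV, WT and HEAA lists covered 0.490%, 0.184% and 0.690% of the windows, against 7.88%, 5.55% and 8.28% of the genome. The mean over acetylated tiles, the like measure, was 6.12%, 3.65% and 5.34%, so the windows lay below it in all 3 lines. The median acetylated tile had 1.41%, 0.247% and 0.658%. The share in the windows was near this median in WT and HEAA and below it in EV. The UPK3A and UPK3B windows had no region in any line, EV included. The UPK1B window had 6, 1 and 6 regions, of 2.13, 0.712 and 3.68 kb in all. They were at least 34.7 kb upstream of the start, on the side of IGSF11 and TEX55, apart from a pair from 77.1 to 78.2 kb after it in EV. Their folds were 2.01 to 2.33 for EV, 2.67 for WT and 2.07 to 2.33 for HEAA. UPK2 had 1 in EV, chr11:118846694-118847378, 19.7 kb after the start, with a fold of 3.15 and a −log10 q of 3.28, and none in WT or HEAA.

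At UPK1A a region was called in WT and HEAA but not in EV, the reverse of UPK2. A short H3K27me3 region lay inside the gene in WT, chr19:36160747-36161091, 2.75 kb after the start, with a fold of 3.45 and a −log10 q of 3.31, above 98.7% of the WT list by fold. HEAA had it at chr19:36160846-36161128, with a fold of 2.81 and a −log10 q of 2.66. EV had none in the window, and its nearest was 63.6 kb from the start. Regions in WT and HEAA without EV were 2 of 12 merged H3K27me3 regions in the windows (7.4% of the genome's), those in EV alone were 5 (21%), those in HEAA alone 3 (21.8%) and those in EV and HEAA without WT 2 (10.6%). None of the 12 was in all 3 lines (25.7%), in WT alone (9.44%) or in EV and WT without HEAA (3.91%). With 1 list a line and so few regions, no difference between lines in H3K27me3 around the uroplakin genes can be tested.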

How the data were processed

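ChIP-seq peak lists of 18 samples from 3 UMUC1 lines were used, and the samples were grouped by their titles. Per the submitters' processing notes, MACS2 was used with the builds hg19 and GRCh37. Its version, the aligner, read filters and pooling: not given in the sources used here. Per the labels' protocols, micrococcal nuclease and sonication fragmented the chromatin for UTX and MLL4, and sonication alone that for histone marks. The deposited lists are narrow peaks for UTX and MLL4 and broad regions for histone marks. The fold enrichment of a peak is a linear ratio deposited by the authors. The authors deposited −log10 p-values and −log10 q-values beside it. The score that the authors deposited was not used. The lists hold no read counts, so depth and counting error are unknown.

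A region belonged to a window when they shared at least 1 base. Covered shares are the bases of a window inside called regions. Gene starts were taken as 50 kb inside the window, all on the plus strand, and a region was at a start within 1 kb of it. H3K27ac regions of the 6 libraries were merged at any overlap on chromosomes 1 to 22 and X. The fold given for a merged region in a library is the highest among that library's regions overlapping it. Lines were compared by two-sided exact permutation tests over libraries, unadjusted, in each of the 5 windows: EV against WT and HEAA together, EV against each of them, and WT against HEAA. Named regions were all UTX and MLL4 peaks, the regions over the starts, the up to 3 H3K27ac regions of highest mean fold per window, those called in both libraries of 1 line and neither of another, and the strongest H3K4me1 and H3K27me3 regions. The calculations ran in Python 3.11.15 with NumPy 2.4.6, pandas 2.3.3 and matplotlib 3.10.9, and were tested on simulated data. RefSeq's gene table gave gene numbers, names, neighbours, strand and gene length, and no hg19 position. The alternatives were a −log10 q of at least 2 or 5, lists cut to equal size, coverage relative to the list, other windows and distances, merging within 1 kb, leaving out each replicate number, and blocks by number. The members, motifs and lists were chosen with earlier results of these data known. Other urothelial genes were not analysed here, since no hg19 annotation was used.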

Additional observations from a re-analysis of the deposited data

How the results depend on the processing

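Leaving out 1 replicate number moved the H3K27ac difference of both UTX lines from EV between −1.78 and 0.681 points for UPK1A, −1.32 and 4.26 for UPK1B, −2.25 and 3.47 for UPK2, and −7.94 and 4.78 for UPK3A, so its sign depended on the number. For UPK3B it stayed negative, from −3.98 to −0.653. Relative coverage gave 0.0639 for UPK1A, as a difference of ratios to the list's genome share, and a window of 10 kb each side gave 0.0202 points for UPK3A. WT minus HEAA also changed sign. Without 1 number it ran from −1.16 to 0.586 for UPK1B, −6.68 to 1.61 for UPK3A and −2.55 to 2.53 for UPK3B. For UPK1B it was 0.173 with equal-size lists and 0.147 at a −log10 q of 5. For UPK3B it was 0.342 with equal-size lists, 0.596 and 0.639 with 10 and 25 kb each side, 0.293 and 0.0316 at a −log10 q of 2 and 5, and 0.351 as relative coverage. The cause was not tested. Over the settings that kept both numbers, exact permutation p-values were 0.2 to 1 against EV and 0.5 to 1 for WT against HEAA. The smallest possible p differs between settings. For WT against HEAA with labels permuted within each number it is 0.5.

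With a replicate block (labels permuted within each number, smallest possible p 0.111) the differences were the same by construction, −0.550, 1.47, 0.610, −1.58 and −2.31 points in the order UPK1A, UPK1B, UPK2, UPK3A, UPK3B, with exact permutation p-values of 0.667, 0.556, 0.667, 0.889 and 0.333, and for WT minus HEAA 0.686, −0.288, −0.672, −2.54 and −0.00897. Nothing in the labels says that a number marks a shared culture or day. Over acetylated tiles the difference between the numbers correlated at 0.723 (EV and WT), 0.664 (EV and HEAA) and 0.890 (WT and HEAA).

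The H3K27ac regions in WT and HEAA without EV, and those in WT without HEAA, each 1, became 0 with equal-size lists, at a −log10 q of 2 and of 5 and when regions within 1 kb were merged. Without 1 number they were 0 to 7 and 4 to 8, those in EV alone 1 to 10 and those in HEAA without WT 3 to 7. The latter were 1 at a −log10 q of 2. At 5, merged regions fell from 60 to 35 and those in all libraries from 28 to 18. The H3K27me3 length of HEAA to EV over the windows, 1.41 times, was 0.413 times at a −log10 q of 2 and also with 25 kb each side. At those settings it compares single regions at different genes, 0.283 kb at UPK1A in HEAA with 0.685 kb at UPK2 in EV. The H3K27me3 length of WT to EV, 0.376 times, was 0.599 times with equal-size lists. No H3K27me3 ratio could be formed at 5 or with 10 kb each side. H3K4me1 of WT to EV was 0.545 times at 5, and for UPK3A alone 0.0601 times in WT and 0.342 in HEAA. MLL4 peaks in WT were 1 at 5, and those in HEAA 2 in windows widened by 50 kb. Within 2 or 5 kb all 5 starts had H3K4me1 in all lines, and within 5 kb 1 had H3K27me3. UTX counts kept within 1.5 times in each alternative run. Depth is unknown, so a place without a peak cannot be told from one sequenced too lightly.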
